A study of Mus musculus with 58 samples.

Results

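Microglia marker genes were followed across the prefrontal cortex of mice labelled heterozygous (HT) or wild-type (WT) at Kmt5b, which encodes a methyltransferase of histone H4. The 36 genes were taken by symbol from a list of microglial surface, lysosomal, complement, signalling and transcription factor genes, with a mean of at least 10 normalised counts required. The list was chosen with earlier results of these data known. Shares of members set beside shares of all genes are therefore descriptions and not tests. All 36 were found among the 18088 genes of the table, and all 36 were among the 16669 genes that reached that mean. The samples were 58 bulk mRNA libraries of C57BL/6J mice at postnatal day 25, whose dams' milk had carried the drug or vehicle from postnatal day 3 to 24, for 3 weeks. HT mice had received lithium (5 females, 5 males), fluoxetine (5 females, 5 males) or vehicle (5 females, 5 males). WT mice had received lithium (4 females, 4 males), fluoxetine (5 females, 5 males) or vehicle (5 females, 5 males). Fluoxetine is a serotonin reuptake inhibitor, and lithium is a mood stabiliser. The labels describe neither the mutant Kmt5b allele, nor a drug dose, nor the litter of a mouse, so p-values measure the spread between these mice. The drug came through the dam, so effects of drug and of litter cannot be told apart. Pups were tested as independent mice, and p-values of drug comparisons may be too small where pups shared a dam.

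Microglia are the resident macrophages of the brain. They enter it from the embryonic yolk sac, depend on signalling through the receptor Csf1r, and keep their identity through TGF-beta signalling and the transcription factors Spi1 (PU.1), Irf8 and Sall1. In the postnatal cortex they sense nucleotides through purinergic receptors such as P2ry12, meet neurons through Cx3cr1, and engulf synapses and dying cells tagged by complement C1q. RNA of whole tissue was measured here, so fewer microglia and less RNA of a gene in each microglial cell cannot be told apart.

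The results below turn on 5 members, and their promoters were read from RefSeq sequence of build GRCm38.p6, as the 250 bases before the annotated transcription start, 5′ to 3′ on the strand of the gene. P2ry12 and P2ry13 are neighbouring nucleotide receptor genes on chromosome 3. Ctss and Mpeg1 are lysosomal genes whose response to fluoxetine differed by genotype in the main fit, a call that several other fits did not keep. Adam8 rose with both drugs in both genotypes in the main fit. Capitals mark the letters GAGGAA, or TTCCTC for the other strand, the core letters of sites that PU.1 binds. The promoter of P2ry12 lies at chr3:59262986-59263235 on the minus strand, that of P2ry13 at chr3:59210883-59211132 on the minus strand, and that of Ctss at chr3:95526536-95526785 on the plus strand. The promoter of Mpeg1 lies at chr19:12460520-12460769 on the plus strand, and that of Adam8 at chr7:139992563-139992812 on the minus strand.
P2ry12: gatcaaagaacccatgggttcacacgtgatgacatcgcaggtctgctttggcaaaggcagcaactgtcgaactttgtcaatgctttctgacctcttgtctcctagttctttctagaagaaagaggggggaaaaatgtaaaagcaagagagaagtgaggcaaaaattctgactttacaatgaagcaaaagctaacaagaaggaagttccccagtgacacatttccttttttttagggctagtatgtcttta
P2ry13: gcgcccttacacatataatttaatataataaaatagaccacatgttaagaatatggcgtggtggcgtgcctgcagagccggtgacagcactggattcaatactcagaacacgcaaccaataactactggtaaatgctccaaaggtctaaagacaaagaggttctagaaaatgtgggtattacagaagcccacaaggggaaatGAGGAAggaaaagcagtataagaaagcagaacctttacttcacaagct
Ctss: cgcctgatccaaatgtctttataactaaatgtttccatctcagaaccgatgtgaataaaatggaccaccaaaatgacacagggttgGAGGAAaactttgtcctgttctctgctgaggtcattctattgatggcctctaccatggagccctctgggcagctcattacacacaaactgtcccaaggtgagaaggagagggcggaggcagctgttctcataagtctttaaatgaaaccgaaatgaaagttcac
Mpeg1: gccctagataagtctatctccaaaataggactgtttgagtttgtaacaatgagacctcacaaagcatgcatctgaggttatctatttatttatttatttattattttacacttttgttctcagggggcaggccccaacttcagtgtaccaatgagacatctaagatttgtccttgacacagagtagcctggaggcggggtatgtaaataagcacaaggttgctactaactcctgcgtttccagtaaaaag
Adam8: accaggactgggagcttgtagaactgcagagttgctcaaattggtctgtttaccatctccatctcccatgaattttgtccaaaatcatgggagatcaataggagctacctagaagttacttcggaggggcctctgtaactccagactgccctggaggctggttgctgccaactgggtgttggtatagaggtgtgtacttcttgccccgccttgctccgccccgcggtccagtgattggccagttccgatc
The letters started 48 bases before the start of P2ry13 and 164 bases before the start of Ctss, and were not present in the windows of P2ry12, Mpeg1 and Adam8. RefSeq promoters were matched for 27 of the 36 members, which have 33 annotated starts between them. GAGGAA or TTCCTC occurred in 17 of these 33 promoters (51.5%), against 23.3% of all 32851 promoters. The longer form GAGGAAGT or ACTTCCTC, which contains the shorter one, occurred in 3 of the 33 (9.09%), against 2.44% of all promoters. A match of letters is a description of the sequence and does not show that a factor binds there.

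Values are the normalised counts that the authors deposited, which are read counts divided by a size factor of the library. In HT mice Kmt5b had 1573 to 2008 normalised counts (1734 ± 98.3, SD, n = 30), against 1409 to 1956 (1654 ± 137, SD, n = 28) in WT mice, so it was not lower in the libraries labelled HT. HT and WT therefore stand for the labelled genotype in every direction given below. Recovered read totals ran between 23.5 M and 38.6 M, with a median of 27.6 M. Markers of mitral and tufted cells of the olfactory bulb (Doc2g, Cdhr1, Tbx21 and Eomes), cells that prefrontal cortex does not hold, set 10 libraries apart. Their mean log2 level was at most 5.01 in these 10 libraries and 6.77 to 10.6 in the other 48. The 10 were 3 of HT lithium, 3 of HT fluoxetine, 0 of HT vehicle, 0 of WT lithium, 1 of WT fluoxetine and 3 of WT vehicle, so the level of these markers was spread unevenly over the groups. The share of counts on mitochondrially encoded genes was 6.74, 7.65 and 8.67% (lowest, median, highest) in HT lithium, 7.04, 7.89 and 9.01% in HT fluoxetine and 6.02, 6.84 and 7.85% in HT vehicle mice. It was 5.33, 7.63 and 8.56% in WT lithium, 6.17, 7.52 and 8.08% in WT fluoxetine and 7.27, 7.53 and 9.05% in WT vehicle mice. The part of the mitochondrial share in the results below was not tested, and results that change without the 10 libraries are given with both values.

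All 36 members were expressed in every library, and the lowest value of any of them was 29.1 normalised counts, of P2ry6 in 1 HT fluoxetine library. Means over the 58 libraries ran between 61.9 normalised counts for P2ry6 and 2405 for Csf1r. Divided by exon length, the levels were highest for Ctss, a lysosomal cysteine protease (1109 normalised counts per kilobase), and lowest for Ptprc, the CD45 phosphatase (6.07). After Ctss the order per kilobase was C1qa (912), C1qb (846), P2ry12 (527), C1qc (484), Csf1r (416) and Tyrobp (401). The genes lie on 15 chromosomes, with 6 on chromosome 3. P2ry12 (chr3:59216272-59262871) and P2ry13 (chr3:59207892-59210882) lie within Med12l on its opposite strand, and Gpr34 (chrX:13632089-13640858) lies within Cask on its opposite strand. The library kit keeps strand, but whether the counting used it is not stated, so part of the reads of these 3 genes could belong to the gene around them. Fcgr3 shares a near-identical stretch with the related receptor gene Fcgr2b, and its counts are uncertain for that reason.

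Within groups, most members varied together, so the counts of members below are not counts of independent genes. After the mean of each of the 12 groups was taken off, a member's log2 value was correlated with the mean of the other 35 members over the 58 libraries, which share their depth scaling and tissue piece. The coefficient was at least 0.5 for 25 members and at least 0.7 for 10, with a median of 0.59. It was highest for Fcrls (0.83), an Fc receptor-like protein, followed by Siglech (0.81), a sialic acid-binding lectin, and by the complement chains C1qc (0.81), C1qa (0.81) and C1qb (0.79). It was 0.28 for P2ry6 and for Apbb1ip, 0.01 for Adam8 and −0.54 for Sall1, the member below 0. By the same measure the genes outside the list most like its mean included S1pr1 (0.79), Vsir (0.77), Rnase4 (0.75), Cxcl14 (0.75), Csrp1 (0.74), Itgb5 (0.72), Emp2 (0.72), F11r (0.71) and Slc39a12 (0.69).

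Sall1, a zinc-finger transcription factor that marks microglia among brain macrophages and is also made by neural progenitors, followed the olfactory bulb markers. Over the 48 libraries with high bulb markers, its log2 level rose with theirs (Pearson's r = 0.87, Spearman's rho = 0.87, permutation p = 2e-05 for each, the smallest these permutations can give, adjusted p = 8e-05 over 4 relations). Without the 2 libraries farthest from the median bulb level, r was 0.89. Over the 10 libraries with low bulb markers r was 0.19 (permutation p = 0.604, adjusted p = 0.604; rho = −0.02) and −0.17 without the 2 farthest. No direction is drawn from Sall1 in the comparisons below. The mean of the other 35 members ran the other way over the 48 libraries (r = −0.39, permutation p = 0.00618, adjusted p = 0.0124; rho = −0.44, permutation p = 0.00218), with r = −0.32 without the 2 farthest. Over the 10 low libraries it gave r = 0.39 (permutation p = 0.268, adjusted p = 0.357; rho = 0.19), and 0.02 without the 2 farthest. Group means were not taken off in these 4 relations. They therefore mix differences between groups with differences within groups.

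**Figure D1:**
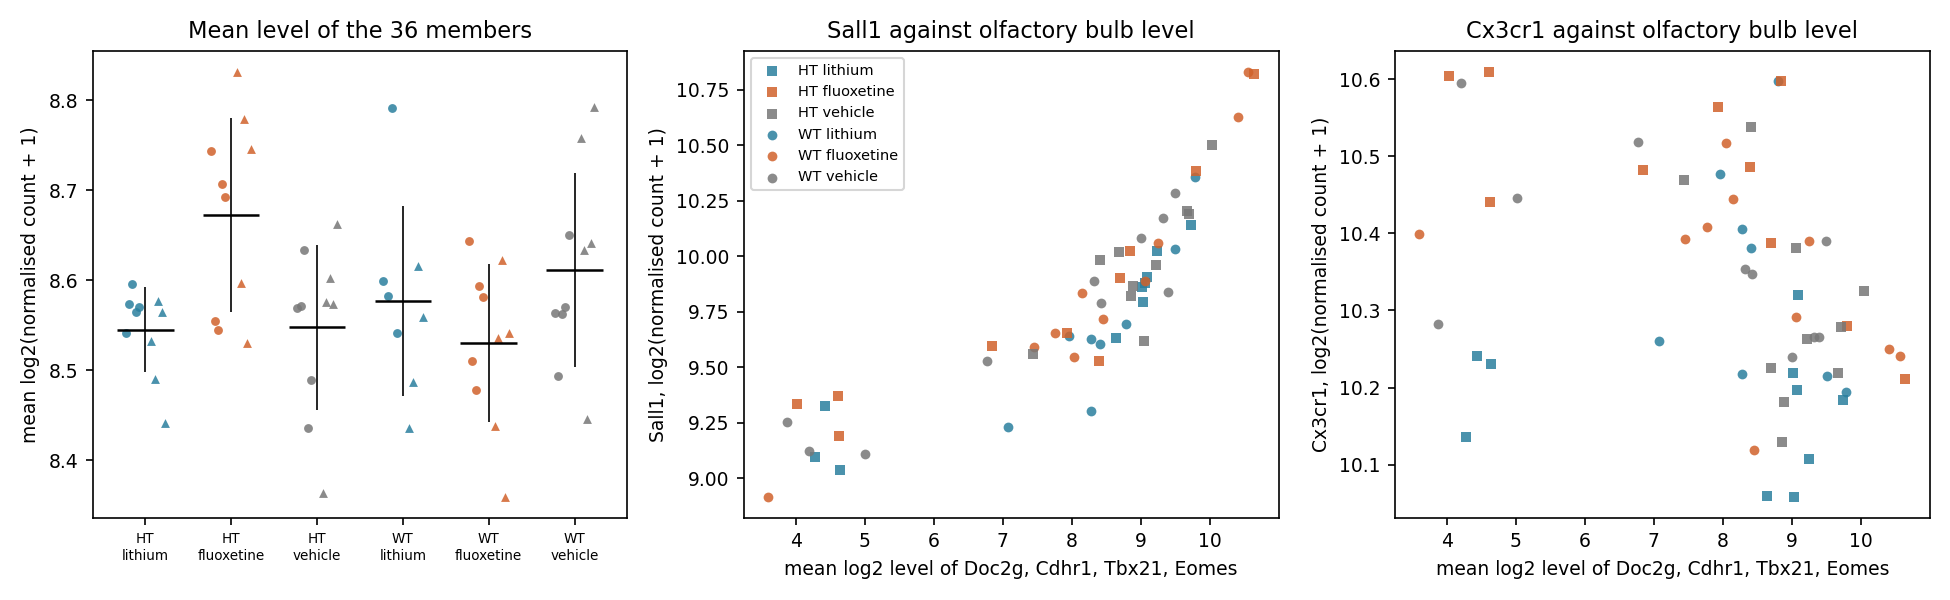
Left, mean log2(normalised count + 1) of the 36 members in each library (circles female, triangles male, line mean, bar SD), with HT fluoxetine between 8.53 and 8.83 and HT vehicle between 8.36 and 8.66. Middle and right, log2 levels of Sall1 and Cx3cr1 against the mean log2 level of 4 olfactory bulb markers, 1 point a library (squares HT, circles WT): Sall1 climbs with the bulb markers over the 48 libraries at 6.77 or more, and the 10 libraries at 5.01 or less stand apart.

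Fluoxetine in HT mice was accompanied by higher levels of 13 members and a lower level of 1. By size, the genes that rose most were the nucleotide receptor P2ry13, the metalloprotease Adam8 and the phosphatase Ptprc, and the nucleotide receptor P2ry6 was the gene that fell. In the linear model of log2(value + 1) fitted with limma across all 16669 genes, with Benjamini-Hochberg adjustment, 12.8% of all genes passed an adjusted p of 0.05 in this comparison, 6.84% higher and 5.96% lower. The median log2 difference of the 36 members was 0.13 and that of all genes was −0.00. The estimate was above 0 for 28 of the 36 members (77.8%), against 49.1% of all genes. The mean log2 level of the 36 members was 8.53 to 8.83 with a median of 8.70 in HT fluoxetine mice, against 8.36 to 8.66 with a median of 8.57 in HT vehicle mice.

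Of the 5 purinergic and chemokine receptors, 4 rose and 1 fell with fluoxetine in HT mice. P2ry13, a receptor for ADP, had 312, 368 and 501 normalised counts (lowest, median, highest) in HT fluoxetine mice, against 225, 279 and 348 in HT vehicle mice. The groups overlapped, but all 10 fluoxetine libraries lay above the vehicle median and 7 of 10 above the highest vehicle library. Its log2 difference was 0.45 ± 0.08 (SE, limma adjusted p = 0.000185). P2ry12, the ADP receptor that guides microglial processes toward injury, had 1181, 1529 and 1798 in HT fluoxetine mice, against 1060, 1204 and 1434 in HT vehicle mice, and 6 of 10 fluoxetine libraries were above every vehicle library (log2 difference 0.30 ± 0.07, SE, limma adjusted p = 0.00507). Gpr34, a receptor for lysophosphatidylserine, had 328, 358 and 474 in HT fluoxetine mice, against 257, 300 and 395 in HT vehicle mice, with all 10 fluoxetine libraries above the vehicle median (0.32 ± 0.08, SE, limma adjusted p = 0.0067). These 3 receptors all rose, P2ry13 by the most on the log2 scale, and the plot of normalised counts shows them by library. Cx3cr1, the receptor for the neuronal chemokine Cx3cl1, rose by less, 0.17 on the log2 scale (limma adjusted p = 0.0387). P2ry6, a receptor for UDP linked to phagocytosis, had 29.1, 53.7 and 75.9 in HT fluoxetine mice, against 55.5, 75.3 and 92.0 in HT vehicle mice. It was lower in the drug group, with 6 of 10 fluoxetine libraries below the lowest vehicle library (log2 difference −0.49 ± 0.12, SE, limma adjusted p = 0.00673).

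The other 9 genes that rose in HT mice came from several roles. Hpgds, the haematopoietic prostaglandin D synthase, rose by 0.34 on the log2 scale (limma adjusted p = 0.00165), with 231, 265 and 304 normalised counts in HT fluoxetine mice, against 187, 206 and 260 in HT vehicle mice. All 10 fluoxetine libraries lay above the vehicle median. Tgfbr1, a signalling receptor for TGF-beta, rose by 0.20 (limma adjusted p = 0.00468), and Mpeg1, a pore-forming protein of phagosomes, by 0.15 (limma adjusted p = 0.0292). Among immune receptors and adaptors, Ptprc rose by 0.36 (limma adjusted p = 0.0067), the tetraspanin Cd53 by 0.35 (limma adjusted p = 0.0064), and Ly86, a partner of a Toll-like receptor relative, by 0.30 (limma adjusted p = 0.0133). Among adhesion genes, the metalloprotease Adam8 rose by 0.39 (limma adjusted p = 0.00857) and Apbb1ip, an effector of integrin activation, by 0.25 (limma adjusted p = 0.019). Fcgr3, an immunoglobulin receptor, rose by 0.21 (limma adjusted p = 0.0389). All 14 members that passed had the same sign in females and in males, but the size differed for some. The test averaged both sexes, so the shared sign is no independent support. Adam8 differed by 0.12 in females and 0.66 in males, and P2ry6 by −0.67 in females and −0.31 in males, and the difference between the sexes was not tested.

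Many of the genes most used to recognise microglia did not pass in HT mice given fluoxetine. Tmem119, a membrane protein of microglia, differed by 0.08 on the log2 scale (95% interval −0.06 to 0.23, limma adjusted p = 0.486), and Csf1r by 0.01 (−0.09 to 0.11, limma adjusted p = 0.955). Csf1r had 2083, 2412 and 2668 normalised counts in HT fluoxetine mice, against 2260, 2393 and 2695 in HT vehicle mice, and its groups overlapped almost fully. C1qa differed by 0.10 (−0.00 to 0.20, limma adjusted p = 0.188), and 0 of the 3 C1q chains passed. Sall1 differed by −0.19 (−0.57 to 0.19, limma adjusted p = 0.541). Of the 9 immune receptor, adaptor and signalling genes 4 rose, of the 5 adhesion and motility genes 2, of the 4 lysosomal genes 1, and of the 3 transcription factors 0.

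Markers of other cells were also read in this comparison, in which 12.8% of all genes passed, 6.84% higher and 5.96% lower. A list that passed about as often gives no result about that list. The part of these lists in the result was not tested. Of 16 oligodendrocyte lineage genes 5 rose and 0 fell (median log2 difference 0.19), among them Mal (0.62, limma adjusted p = 0.0125) and Ermn (0.59, limma adjusted p = 0.0135). Their mean log2 level was 10.7 to 11.6 in HT fluoxetine mice and 10.5 to 11.3 in HT vehicle mice. Of 12 astrocyte genes 3 rose (median 0.15), led by Gjb6 (0.38, limma adjusted p = 0.000988), with a mean log2 level of 12.1 to 12.4 in HT fluoxetine mice and 12.1 to 12.2 in HT vehicle mice. Of 12 endothelial and mural genes 3 rose (median −0.05), led by Slco1a4 (0.29, limma adjusted p = 0.00097). Of 12 neuronal genes 2 fell, Tubb3 (−0.21, limma adjusted p = 0.00152) and Slc32a1 (−0.25, limma adjusted p = 0.0428), with a median of −0.08. Of 12 genes of border macrophages, the macrophages of meninges and vessels, Cd163 rose (0.53, limma adjusted p = 0.0419), with a median of 0.17 and a mean log2 level of 5.55 to 6.58 in HT fluoxetine mice and 5.66 to 6.26 in HT vehicle mice. Of 20 blood and leukocyte genes 8 were in the table and 6 were tested. Ccr2 rose (0.80, limma adjusted p = 0.00601), and it was the 1 gene of the 6 above 0 (median of the 6 −0.21). None of the 4 olfactory bulb markers passed (median −1.55, limma). Their mean log2 level spread widely in HT fluoxetine mice (SD 2.32, against 0.745 in HT vehicle mice), so this does not show equal bulb content. Low bulb markers were seen in 3 HT fluoxetine and 0 HT vehicle libraries.

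Without the 10 libraries of low bulb markers, 10 of the 14 members still passed in HT mice given fluoxetine, and P2ry12 (0.22, limma adjusted p = 0.0572), Cx3cr1 (0.13, limma adjusted p = 0.151), Mpeg1 (0.09, limma adjusted p = 0.257) and Fcgr3 (0.15, limma adjusted p = 0.14) did not. With each library left out in turn the count was 11 to 18, and the call on Cx3cr1 ended without any 1 of 13 of the 20 libraries, that on Fcgr3 without any 1 of 10, and that on Mpeg1 without any 1 of 7. The set of 54 libraries used for edgeR and DESeq2 lacks 3 HT vehicle libraries and 1 HT lithium library. On these 54 the count was 7 in limma, 8 in edgeR and 9 in DESeq2. Cx3cr1, Mpeg1, Fcgr3, Apbb1ip and Adam8 (0.34, limma adjusted p = 0.0699) passed in none of these 3 fits, while P2ry13, P2ry12, Gpr34, Hpgds, Tgfbr1, Cd53 and P2ry6 passed in all 3.

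**Figure D2:**
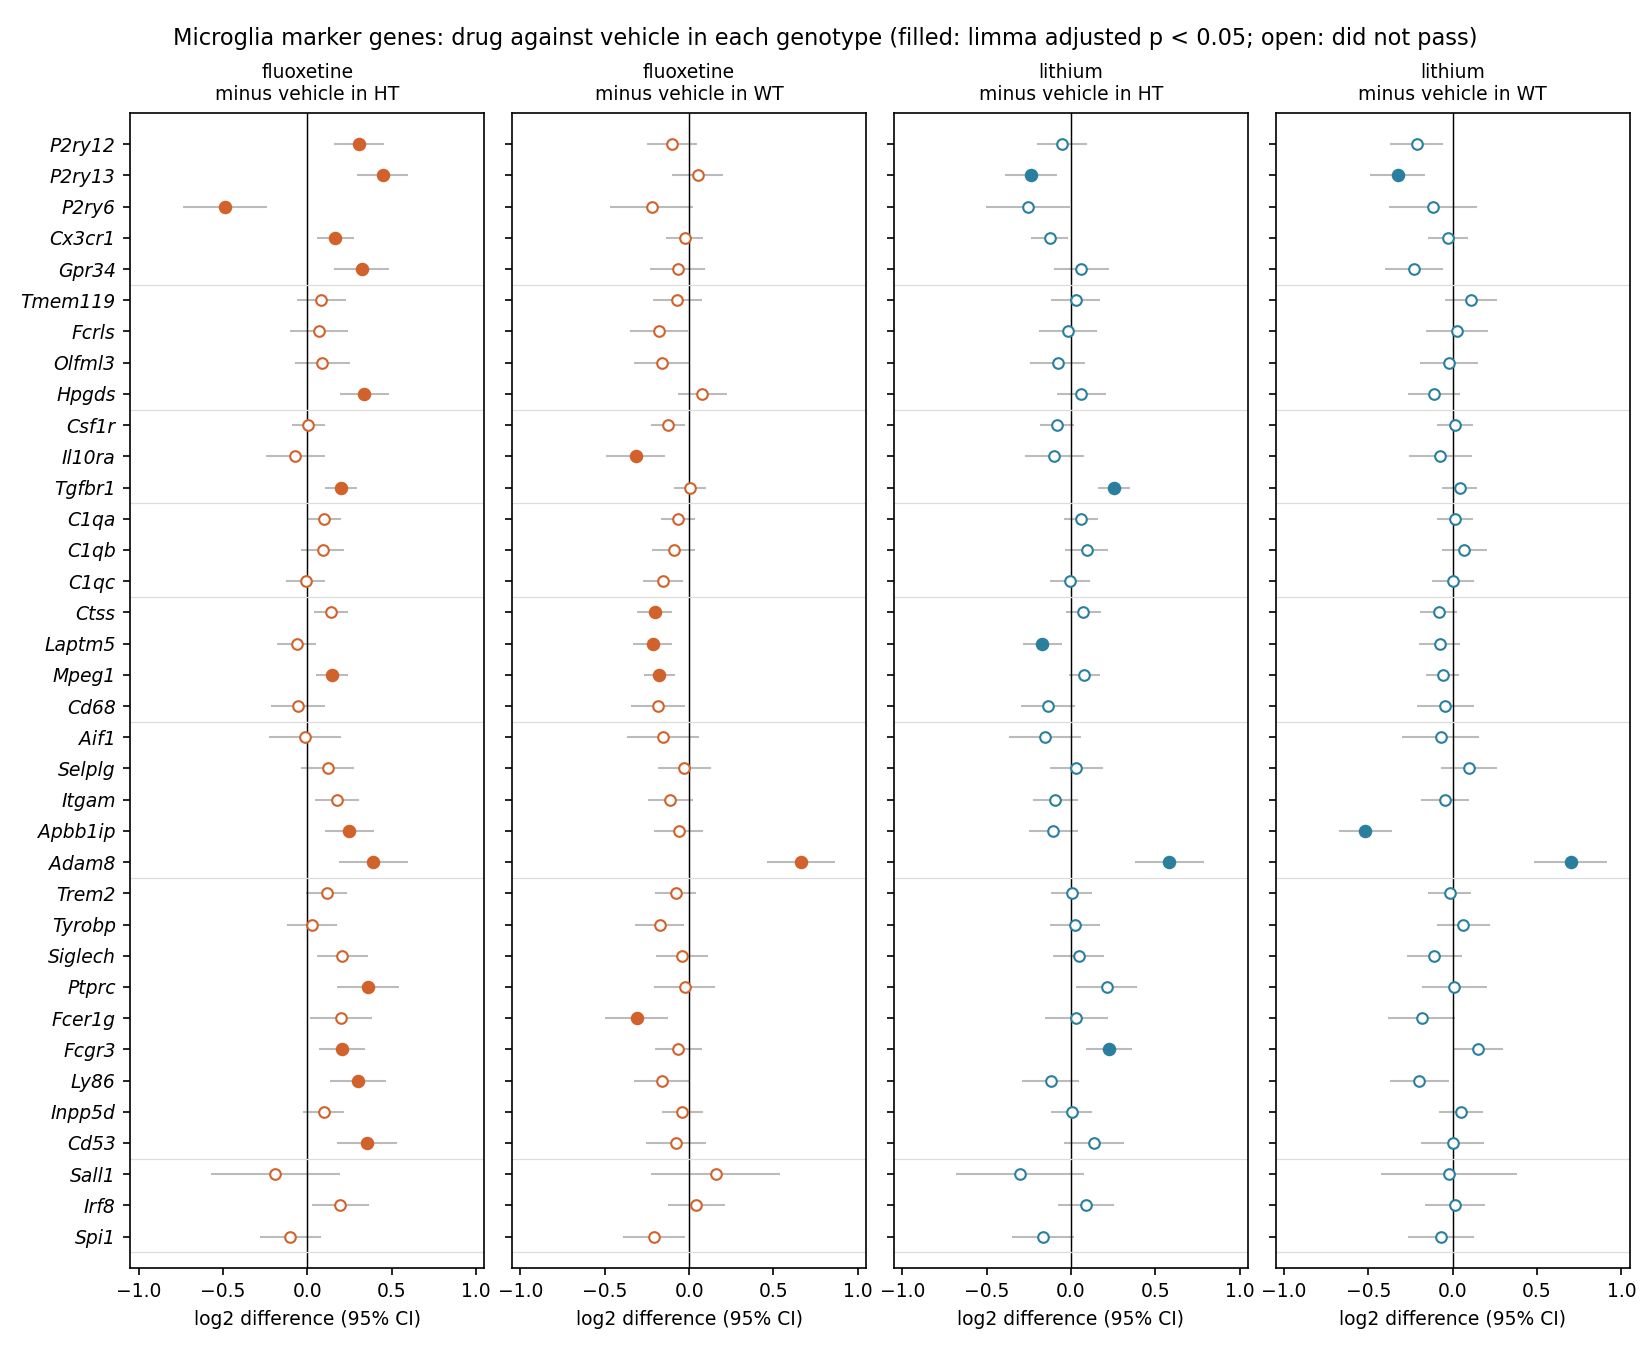
Log2 difference from vehicle with its 95% interval for each of the 36 members, grouped by role from receptors at the top to transcription factors at the bottom, in HT and WT mice given fluoxetine and in HT and WT mice given lithium. Filled points passed a limma adjusted p of 0.05: 14 members in HT fluoxetine, 6 in WT fluoxetine, 5 in HT lithium and 3 in WT lithium, with Adam8 above 0 and filled in every panel.

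In WT mice fluoxetine went with lower levels of 5 members and a higher level of 1, Adam8. The lower ones were the lysosomal genes Ctss, Mpeg1 and Laptm5, the interleukin-10 receptor Il10ra and the Fc receptor adaptor Fcer1g. Of all genes 7.39% passed in this comparison, 3.98% higher and 3.41% lower. The median log2 difference of the members was −0.09, against −0.00 for all genes, and 6 of the 36 were above 0 (16.7%), against 49.7% of all genes. The mean log2 level of the members was 8.36 to 8.64 in WT fluoxetine mice and 8.45 to 8.79 in WT vehicle mice.

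Ctss had 1178, 1372 and 1526 normalised counts in WT fluoxetine mice, against 1391, 1566 and 1913 in WT vehicle mice. Mpeg1 had 649, 741 and 832 in WT fluoxetine mice, against 788, 849 and 936 in WT vehicle mice. For both genes 0 of 10 fluoxetine libraries lay above the vehicle median, while the ranges still overlapped. Ctss fell by 0.20 on the log2 scale (limma adjusted p = 0.00925) and Mpeg1 by 0.18 (limma adjusted p = 0.013). Laptm5, a transmembrane protein of lysosomes, fell by 0.22 (limma adjusted p = 0.0153), Il10ra by 0.32 (limma adjusted p = 0.0175) and Fcer1g by 0.31 (limma adjusted p = 0.0321). Adam8 had 103, 139 and 184 normalised counts in WT fluoxetine mice, against 66.8, 86.2 and 129 in WT vehicle mice, with all 10 fluoxetine libraries above the vehicle median and 7 above the highest vehicle library. Its log2 difference was 0.66 ± 0.10 (SE, limma adjusted p = 1.62e-05).

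The receptors P2ry13, P2ry12, Gpr34, Cx3cr1 and Tgfbr1, which rose with fluoxetine in HT mice, did not pass in WT mice. P2ry13 differed by 0.05 on the log2 scale and Gpr34 by −0.07. P2ry12 differed by −0.10 on the log2 scale (95% interval −0.25 to 0.05, limma adjusted p = 0.404) and Cx3cr1 by −0.03 (−0.14 to 0.08, limma adjusted p = 0.811). Among other core genes the values were −0.07 for Tmem119, −0.12 for Csf1r (limma adjusted p = 0.11), −0.07 for C1qa and 0.16 for Sall1, and none passed. By sex, 17 of the 36 members were above 0 in WT females (median −0.01) and 4 in WT males (median −0.18), a difference between the sexes that was not tested. The 6 that passed had the same sign in both sexes, which is no independent support, because the test averaged the sexes. Without the 10 libraries of low bulb markers, 3 of them WT vehicle and 1 WT fluoxetine, Adam8 still passed and the other 5 did not, with log2 differences of −0.17 for Ctss (limma adjusted p = 0.0699), −0.16 for Mpeg1 (limma adjusted p = 0.0747), −0.20 for Laptm5 (limma adjusted p = 0.065), −0.25 for Il10ra (limma adjusted p = 0.103) and −0.19 for Fcer1g (limma adjusted p = 0.315). Leaving out single libraries gave 5 to 9 members. Endothelial and mural genes gave a median of −0.16 with 2 of 12 lower, led by Tek (−0.39, limma adjusted p = 0.000987), astrocytes a median of −0.03 with Aldh1l1 lower (−0.15, limma adjusted p = 0.0243), oligodendrocyte lineage genes 0.05 with 0 of 16 passing, and neurons −0.07 with 0 of 12 passing. Of the 12 border macrophage genes, Cd163 (0.61, limma adjusted p = 0.0298), Lyve1 (0.50, limma adjusted p = 0.047) and F13a1 (0.33, limma adjusted p = 0.0443) rose and Mgl2 fell by 0.54 (limma adjusted p = 0.0379). For scale, 7.39% of all genes passed in this comparison, and the part of these markers was not tested.

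**Figure D3:**
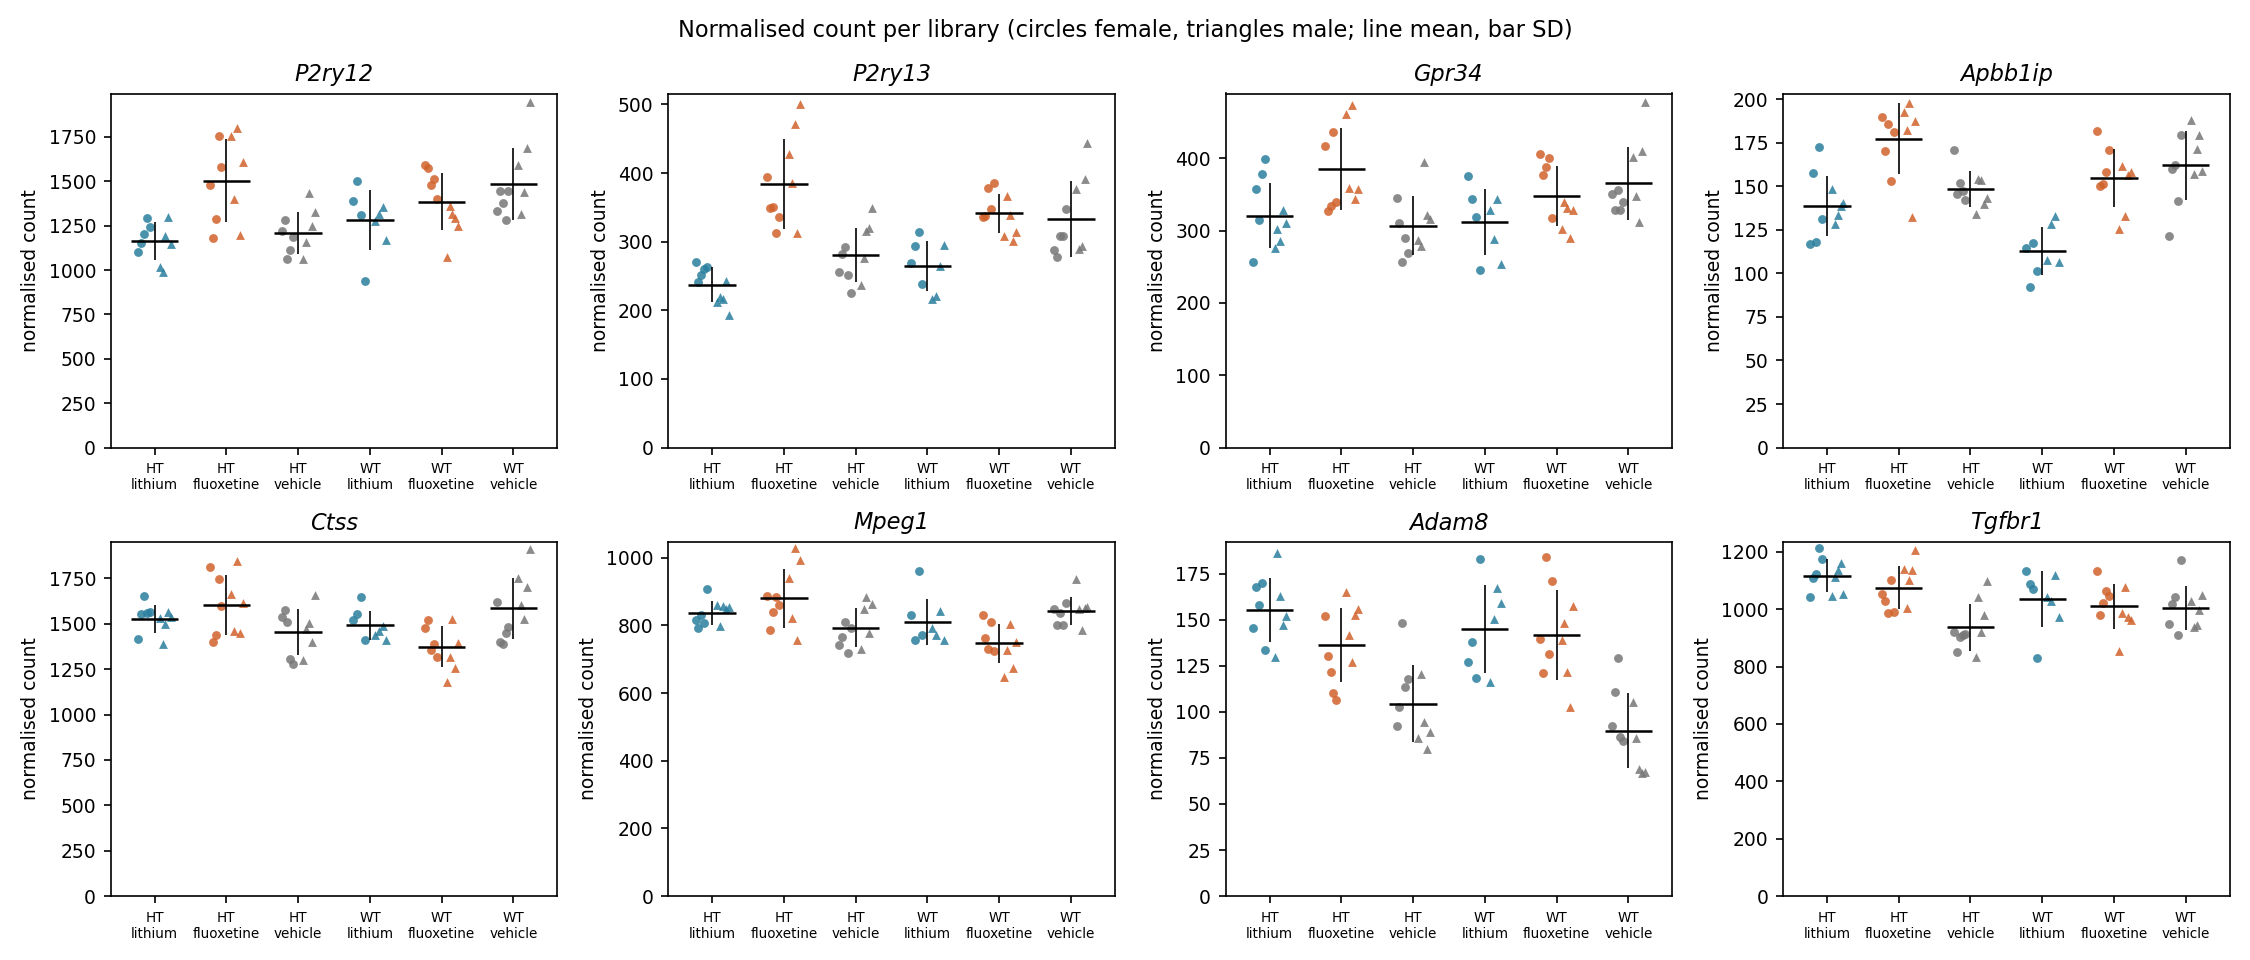
Normalised counts of 8 members in each library by genotype and treatment (circles female, triangles male, line mean, bar SD, axes from 0). By median, P2ry12 (1529), P2ry13 (368), Gpr34 (358) and Apbb1ip (184) are highest in HT mice with fluoxetine, Ctss (1372) and Mpeg1 (741) are lowest in WT mice with fluoxetine, and Adam8 is lowest in both vehicle groups.

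The response of 2 lysosomal genes, Mpeg1 and Ctss, to fluoxetine differed between the genotypes in the main fit, but not in several others. Of the 36 members Mpeg1 and Ctss passed in the direct test of that difference, the genotype by fluoxetine interaction, in which 0.042% of all genes (7 of 16669) passed, 0.042% higher and 0% lower. The difference of log2 differences was 0.32 ± 0.07 for Mpeg1 (SE, limma adjusted p = 0.0384) and 0.34 ± 0.07 for Ctss (SE, limma adjusted p = 0.0403). Next in order was Ly86 (0.46, 95% interval 0.23 to 0.70, limma adjusted p = 0.104). The estimate was above 0 for 33 of the 36 members with a median of 0.20, against 49.6% of all genes and a median of −0.00. An unadjusted limma p under 0.05 was held by 22 of the 36 members, against 1858 of all 16669 genes. Most members vary together within groups, so neither count of members is one of independent genes. The difference of log2 differences was 0.40 for P2ry12 (0.20 to 0.61, limma adjusted p = 0.108). It was 0.19 for Cx3cr1, 0.15 for Tmem119, 0.13 for Csf1r, 0.17 for C1qa and −0.35 for Sall1, and none of these passed. All 12 endothelial and mural genes were also above 0 (median 0.20, with Slco1a4 passing at 0.47, limma adjusted p = 0.00887), oligodendrocyte lineage genes had a median of 0.23 and bulb markers one of −2.44, and their part was not tested. Both calls ended in the fit without the 10 libraries of low bulb markers, where Mpeg1 was 0.24 and Ctss 0.26 (limma adjusted p = 0.782 for each), and in the fit with the bulb level as a covariate, where Mpeg1 was 0.28 and Ctss 0.30 (limma adjusted p = 0.143 for each). With 1 library left out, 0 members passed without HT fluoxetine female 1, 4 or 5 or male 1, 3 or 5, HT vehicle female 4 or male 1 or 4, WT fluoxetine female 3 or 5 or male 1 or 4, or WT vehicle female 1 or 5 or male 1, 4 or 5. The count was 1 without HT vehicle female 5, WT fluoxetine female 1 or 4 or male 2, or WT vehicle female 4, and 4 without HT fluoxetine male 4.

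Under fluoxetine, 3 members were higher in HT mice than in WT mice, and 0 were lower. Of all genes 0.612% passed, 0.384% higher and 0.228% lower. Mpeg1 had 757, 871 and 1028 normalised counts in HT fluoxetine mice, against 649, 741 and 832 in WT fluoxetine mice. Ctss had 1400, 1606 and 1846 in HT fluoxetine mice, against 1178, 1372 and 1526 in WT fluoxetine mice. Ly86 had 227, 250 and 374 in HT fluoxetine mice, against 164, 217 and 246 in WT fluoxetine mice. For all 3 genes the 10 HT libraries lay above the WT median, and 7, 6 and 6 of them above the highest WT library. The log2 differences were 0.23 for Mpeg1 (limma adjusted p = 0.0155), 0.22 for Ctss (limma adjusted p = 0.0289) and 0.34 for Ly86 (limma adjusted p = 0.0407). Of the 36 members 33 were above 0 (median 0.15), against 48.7% of all genes. P2ry12 differed by 0.11, Cx3cr1 by 0.12, Tmem119 by 0.16, Csf1r by 0.08, C1qa by 0.09 and Sall1 by −0.09, none of which passed. Without the 10 libraries of low bulb markers 0 of the 3 passed, at 0.17 for Mpeg1 (limma adjusted p = 0.182), 0.17 for Ctss (limma adjusted p = 0.256) and 0.36 for Ly86 (limma adjusted p = 0.124). The count was 1 without HT fluoxetine female 1, 4 or 5, HT fluoxetine male 1 or 3, WT fluoxetine female 5 or WT fluoxetine male 4. The 12 endothelial and mural genes were all above 0 in this comparison (median 0.12) with 0 passing, oligodendrocyte lineage genes had a median of 0.15 with 0 of 16 passing, and bulb markers a median of −0.84 with 0 of 4 passing. The part of these markers in the result was not tested. The bulb level had an SD of 2.32 in HT and 1.95 in WT fluoxetine mice, so equal bulb content is not shown.

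Under vehicle, none of the 36 members passed between HT and WT mice in limma, edgeR or DESeq2, while 0.048% of all genes passed in limma, 0.03% higher and 0.018% lower. An unadjusted limma p under 0.05 was seen for 8 of the 36 members, against 2035 of all 16669 genes. The 3 smallest p belonged to P2ry12 (log2 difference −0.29, 95% interval −0.44 to −0.15, limma adjusted p = 0.101), P2ry13 (−0.24, limma adjusted p = 0.196) and Gpr34 (−0.25, limma adjusted p = 0.2). P2ry12 had 1060, 1204 and 1434 normalised counts in HT vehicle mice, against 1285, 1443 and 1945 in WT vehicle mice, and 8 of 10 HT libraries lay below the lowest WT library. The median of the members was −0.08, with 7 of 36 above 0, against 50.7% of all genes. Cx3cr1 differed by −0.07, Tmem119 by 0.01, Csf1r by −0.05, C1qa by −0.07 and Sall1 by 0.26, and none passed. Bulb markers had a median of 1.60 here, with 0 of 4 passing, and their part was not tested. The SD of their mean log2 level was 2.24 in WT vehicle mice, so this does not show equal bulb content. Without WT vehicle male 2, P2ry12 passed (−0.33, limma adjusted p = 0.0463).

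With lithium in HT mice the members passed about as often as other genes: 3 of the 36 rose and 2 fell, while 14.1% of all genes passed, 7.46% higher and 6.61% lower. Adam8, Tgfbr1 and Fcgr3 rose, and P2ry13 and Laptm5 fell. The median of the members was 0.01, against −0.00 for all genes, and 19 of 36 were above 0. Their mean log2 level was 8.44 to 8.60 in HT lithium mice and 8.36 to 8.66 in HT vehicle mice. Both drug groups of a genotype were set against the same vehicle libraries, so the drug comparisons are not independent of each other.

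Adam8 had 130, 155 and 186 normalised counts in HT lithium mice, against 79.7, 98.7 and 148 in HT vehicle mice, with all 10 lithium libraries above the vehicle median (log2 difference 0.58 ± 0.10, SE, limma adjusted p = 9.81e-05). Tgfbr1 had 1042, 1118 and 1215 in HT lithium mice, against 834, 916 and 1099 in HT vehicle mice, and 7 of 10 lithium libraries were above the highest vehicle library (0.26 ± 0.05, SE, limma adjusted p = 0.000305). Fcgr3 rose by 0.23 on the log2 scale (limma adjusted p = 0.0219). P2ry13 had 194, 242 and 270 in HT lithium mice, against 225, 279 and 348 in HT vehicle mice, with 0 of 10 lithium libraries above the vehicle median. It fell by 0.24 (limma adjusted p = 0.0286), by 0.02 in females and 0.46 in males, and the difference between the sexes was not tested. Laptm5 fell by 0.17 (limma adjusted p = 0.0384). P2ry12 differed by −0.05, Cx3cr1 by −0.13, Tmem119 by 0.03, Csf1r by −0.08, C1qa by 0.06 and Sall1 by −0.30, and none passed. On the 54 libraries used for edgeR and DESeq2, 2 of the 5, Adam8 and Tgfbr1, still passed in limma, edgeR and DESeq2. P2ry13, Laptm5 and Fcgr3 did not. The count was 3 without HT lithium female 5, HT lithium male 5, HT vehicle female 2 or 3, or HT vehicle male 4 or 5.

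In WT mice given lithium, 1 member rose and 2 fell, where 3.34% of all genes passed, 1.95% higher and 1.39% lower. Adam8 had 117, 144 and 183 normalised counts in WT lithium mice, against 66.8, 86.2 and 129 in WT vehicle mice, with all 8 lithium libraries above the vehicle median (log2 difference 0.70 ± 0.11, SE, limma adjusted p = 4.42e-05). Apbb1ip had 92.3, 111 and 133 in WT lithium mice, against 121, 161 and 188 in WT vehicle mice, and 6 of 8 lithium libraries were below the lowest vehicle library (−0.52 ± 0.08, SE, limma adjusted p = 3.26e-05). P2ry13 had 216, 267 and 314 in WT lithium mice, against 278, 308 and 444 in WT vehicle mice, with 5 of 8 lithium libraries below the lowest vehicle library (−0.33 ± 0.08, SE, limma adjusted p = 0.0126). Adam8 was thus the member that passed in all 4 drug comparisons on 58 libraries, as 0.36% of all genes did. On 54 libraries it missed the threshold with fluoxetine in HT mice. Its lithium and fluoxetine groups sat at similar levels. Within groups Adam8 did not vary with the other members (coefficient 0.01), and which cells its rise belongs to was not tested. The members' median was −0.02, with 15 of 36 above 0. By sex, 24 of the 36 were above 0 in WT females (median 0.03) and 6 in WT males (median −0.12). P2ry13 differed by −0.14 in females and −0.52 in males, and the difference between the sexes was not tested. P2ry12 differed by −0.21 (limma adjusted p = 0.128), Cx3cr1 by −0.03, Tmem119 by 0.11, Csf1r by 0.01, C1qa by 0.01 and Sall1 by −0.02, and none passed. Without the 10 libraries of low bulb markers, P2ry13 no longer passed (−0.26, limma adjusted p = 0.102). Beside the lithium results, oligodendrocyte lineage genes had medians of −0.14 in HT and −0.03 in WT mice, endothelial and mural genes −0.15 and −0.04, astrocytes −0.03 and 0.07, neurons 0.00 and −0.03, border macrophages 0.04 and 0.26, and blood genes 0.03 and 0.34, and their part was not tested.

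Neither HT and WT mice under lithium nor the genotype by lithium interaction gave a member that passed, in limma, edgeR or DESeq2. Of all genes 0.06% passed between HT and WT mice under lithium, 0.048% higher and 0.012% lower, and 0% in the interaction, in limma. Under lithium 6 of the 36 members had an unadjusted limma p under 0.05, against 1683 of all 16669 genes. The smallest were those of Apbb1ip (0.29, limma adjusted p = 0.134), Cx3cr1 (−0.17, limma adjusted p = 0.286) and Csf1r (−0.15, limma adjusted p = 0.307). Apbb1ip had 117, 136 and 173 normalised counts in HT lithium mice, against 92.3, 111 and 133 in WT lithium mice, and it passed without WT lithium female 1 (0.31, limma adjusted p = 0.0389). P2ry12 differed by −0.13, Tmem119 by −0.07, C1qa by −0.03 and Sall1 by −0.02. The members' median was −0.04, with 11 of 36 above 0, against 50.5% of all genes. In the interaction 5 of the 36 members had an unadjusted limma p under 0.05, about as often as all genes (2320 of 16669). The smallest were those of Apbb1ip (0.41, limma adjusted p = 0.196), Tgfbr1 (0.21, limma adjusted p = 0.213) and Gpr34 (0.29, limma adjusted p = 0.281). There P2ry12 was 0.16, Cx3cr1 −0.10, Tmem119 −0.08, Csf1r −0.10, C1qa 0.04 and Sall1 −0.28, and the members' median was 0.01 with 18 of 36 above 0.

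Set directly against each other over both genotypes, lithium and fluoxetine differed in 7 members, all lower with lithium. Of all genes 12.3% passed, 6.62% higher and 5.71% lower with lithium. Of the 5 purinergic and chemokine receptors 4 fell, and the other 3 were Apbb1ip, Hpgds and Ly86. P2ry13 had 194, 242 and 270 normalised counts in HT lithium mice, against 312, 368 and 501 in HT fluoxetine mice, and these groups did not overlap. In WT mice it had 216, 267 and 314 with lithium, against 301, 338 and 385 with fluoxetine. Its log2 difference was −0.53 ± 0.06 (SE, limma adjusted p = 6.65e-10). Apbb1ip had 117, 136 and 173 in HT lithium mice, against 132, 184 and 198 in HT fluoxetine mice. In WT mice it had 92.3, 111 and 133 with lithium, against 126, 158 and 182 with fluoxetine, and both pairs of groups overlapped (−0.40 ± 0.05, SE, limma adjusted p = 2.5e-07). The others were Hpgds (−0.23, limma adjusted p = 0.00179), P2ry12 (−0.24, limma adjusted p = 0.0019), Ly86 (−0.23, limma adjusted p = 0.00789), Cx3cr1 (−0.15, limma adjusted p = 0.0103) and Gpr34 (−0.21, limma adjusted p = 0.0126). Within the genotypes the sizes were uneven, and the difference between them was not tested in this contrast. Cx3cr1 differed by −0.29 in HT mice and −0.0019 in WT mice, and averaged 1304 ± 136 normalised counts in WT lithium mice (SD, n = 8) and 1304 ± 104 in WT fluoxetine mice (SD, n = 10). Ly86 differed by −0.42 in HT and −0.036 in WT mice, and P2ry12 by −0.36 in HT and −0.11 in WT mice. The other 4 ran between −0.68 and −0.26 in HT mice and between −0.46 and −0.16 in WT mice. The 36 members had a median of 0.01, against −0.00 for all genes, and 18 were above 0, while Tmem119 (0.06), Csf1r (0.03), C1qa (0.02) and Sall1 (−0.15) did not pass.

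For P2ry12 and P2ry13 the gene around them moved by less: Med12l differed by −0.11 between lithium and fluoxetine (limma adjusted p = 0.02), and by 0.10 with fluoxetine in HT mice (limma adjusted p = 0.121). With fluoxetine in WT mice, where P2ry12 differed by −0.10 and P2ry13 by 0.05, Med12l moved by more than either and rose by 0.16 (limma adjusted p = 0.0174). For Gpr34 the gene around it, Cask, differed by −0.03 between lithium and fluoxetine (limma adjusted p = 0.341). Without the 10 libraries of low bulb markers 6 of the 7 still passed and Gpr34 did not (−0.17, limma adjusted p = 0.0695). Every fit that left out 1 library gave 7. Of 16 oligodendrocyte lineage genes 5 were lower with lithium than with fluoxetine and 0 higher (median −0.27), where 12.3% of all genes passed. They were led by Olig2 (−0.29, limma adjusted p = 0.000335), and their part was not tested.

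**Figure D4:**
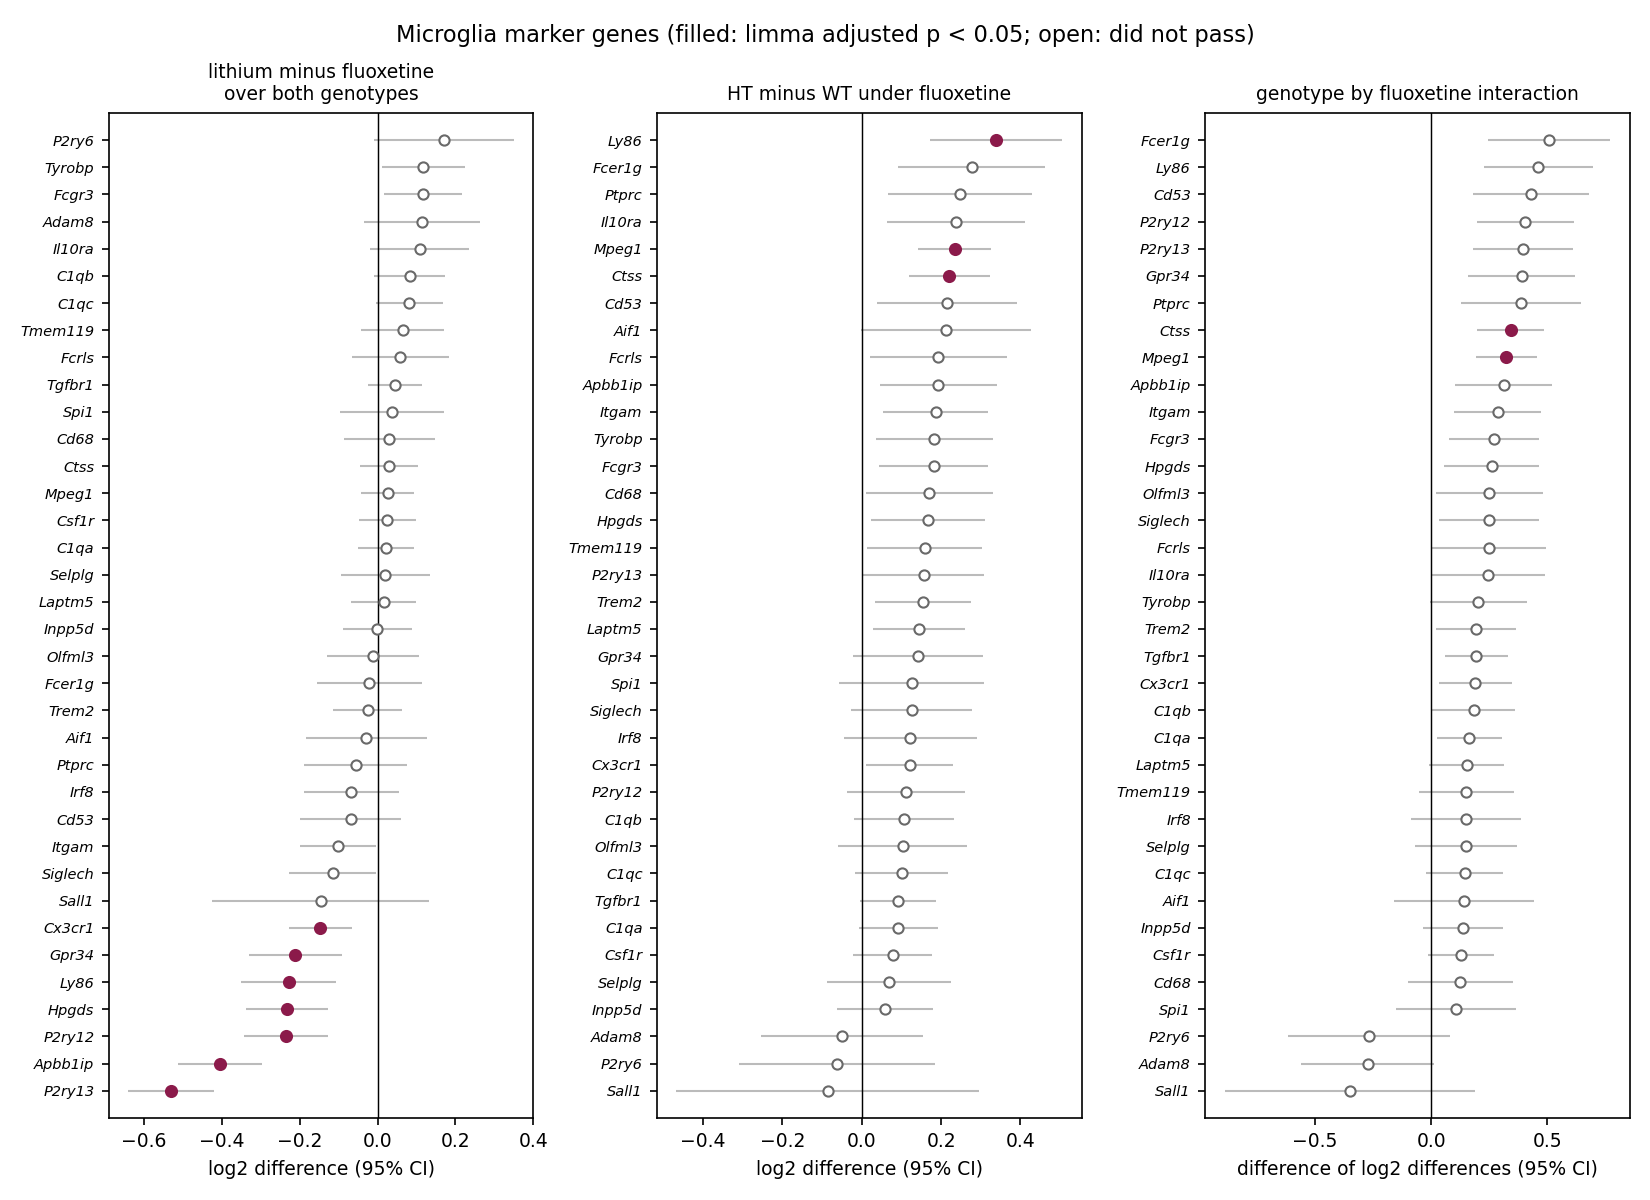
Log2 difference with its 95% interval for each of the 36 members, sorted by value, for lithium minus fluoxetine over both genotypes, HT minus WT under fluoxetine, and the genotype by fluoxetine interaction. Filled points passed a limma adjusted p of 0.05: 7 members below 0 on the left, Mpeg1, Ctss and Ly86 in the middle, and Mpeg1 and Ctss on the right, where 33 of 36 points lie above 0.

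Sex averaged over all groups made no difference that passed: 0 of 36 members did in limma, edgeR or DESeq2, where 0.132% of all genes passed in limma, 0.078% higher and 0.054% lower in females. This contrast does not test whether the response to a drug differs between the sexes. An unadjusted limma p under 0.05 was seen for 1 of the 36 members, against 1376 of all 16669 genes. It was Inpp5d, a lipid phosphatase (female minus male −0.07, limma adjusted p = 0.585), followed by Il10ra (0.09, limma adjusted p = 0.665) and Fcrls (0.07, limma adjusted p = 0.72). Of the 36 members 18 passed in at least 1 of the 4 drug comparisons, against 26.7% of all genes, and the other 18 passed in none of the 11 comparisons, against 67.7% of all genes. These 18 include all 3 C1q chains, Csf1r, Tmem119, the receptor Trem2 and its adaptor Tyrobp, the calcium-binding protein Aif1 (Iba1), and the transcription factors Spi1, Irf8 and Sall1. The members were chosen with earlier results of these data known, so the shares of members and of all genes are a description.

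Genes that work with the members were read from lists of related genes. For scale, 12.8% of all genes passed with fluoxetine in HT mice and 7.39% in WT mice. With lithium, 14.1% of all genes passed in HT mice and 3.34% in WT mice. A list that passed about as often as all genes gives no result about that list. Of 23 phagocytic and lysosomal genes, 5 rose and 1 fell with fluoxetine in HT mice (median −0.02). Mertk, the receptor that engulfs dying cells, rose with fluoxetine in WT mice (0.40, limma adjusted p = 0.000573), with lithium in HT mice (0.62, limma adjusted p = 3.73e-07) and with lithium in WT mice (0.42, limma adjusted p = 0.000963), where 1 gene rose and 2 fell, 3 rose and 3 fell, and 1 rose and 0 fell. Of 13 transcription factors of microglia, 2 rose and 3 fell with fluoxetine in HT mice and 0 rose and 3 fell in WT mice. Bhlhe40 fell by 0.40 in HT (limma adjusted p = 0.00338) and by 0.52 in WT mice (limma adjusted p = 0.000158), and Cebpb by 0.41 (limma adjusted p = 0.00726) and 0.52 (limma adjusted p = 0.00108). With lithium in HT mice Ikzf1 rose by 0.34 (limma adjusted p = 0.00713) and Runx1 by 0.57 (limma adjusted p = 0.0158), Cebpb fell by 0.35 (limma adjusted p = 0.0207), and in WT mice 0 of the 13 passed.

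Of 16 genes for survival and restraint signals, 2 rose and 1 fell with lithium in HT mice (median −0.02), where 14.1% of all genes passed. In WT mice 1 rose and 0 fell (median 0.02), where 3.34% of all genes passed. Nrros, which presents TGF-beta on microglia, rose with lithium by 0.49 in HT (limma adjusted p = 0.000359) and by 0.57 in WT mice (limma adjusted p = 0.000194). In HT mice the TGF-beta signal transducer Smad3 also rose (0.20, limma adjusted p = 0.023) and the ligand Tgfb1 fell by 0.31 (limma adjusted p = 0.0188). With fluoxetine 1 of the 16 fell in each genotype, Tgfb3 in HT mice (−0.19, limma adjusted p = 0.021) and Tgfbr2 in WT mice (−0.18, limma adjusted p = 0.0451). Of 17 complement genes outside the members, 3 rose with fluoxetine in HT mice, among them the receptors C3ar1 (0.31, limma adjusted p = 0.0425) and C5ar2 (0.52, limma adjusted p = 0.0425), and none passed in the other 3 drug comparisons in limma. Of 14 purine signalling partners, Entpd1, the ectonucleotidase CD39, rose by 0.20 with fluoxetine (limma adjusted p = 0.00589) and by 0.20 with lithium (limma adjusted p = 0.00476) in HT mice, P2ry14 rose with lithium in HT mice (0.36, limma adjusted p = 0.0235), and none passed in WT mice in limma. Of 18 genes of activated or disease-associated microglia, Lpl rose (0.26, limma adjusted p = 0.0318) and Apoe fell by 0.20 (limma adjusted p = 0.0185) with fluoxetine in HT mice, and Apoe fell by 0.31 (limma adjusted p = 0.000234) and Axl by 0.16 (limma adjusted p = 0.0137) with lithium in HT mice, with 0 in WT mice for either drug. Of 20 interferon and antigen presentation genes 0 passed with fluoxetine in either genotype, and 3 fell with lithium in HT mice, among them Ifitm3 (−0.32, limma adjusted p = 0.0218) and Tap1 (−0.31, limma adjusted p = 0.0259). With lithium in HT mice, where 14.1% of all genes passed, the interferon and activated microglia lists passed about as often. With fluoxetine in HT mice, where 12.8% of all genes passed, the activated microglia list also passed about as often.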

How the data were processed

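RNA of prefrontal cortex had been sequenced with a stranded mRNA kit, per the labels' protocols. Per the submitters' processing notes the tools were Salmon 0.11.2, R 3.6.0 and DESeq2 1.19.11 with build GRCm38; the annotation release and the use of strand are not given in the sources used here. The authors deposited 1 table of normalised counts, a signal in which read counts are divided by a size factor, for 18088 genes and 58 libraries; 0 columns were left unmapped. Symbols were found for 18077 IDs, and 11 had none. Gene coordinates came from a GENCODE annotation of GRCm38.

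Values were tested as log2(value + 1) with limma 3.58.1 (trend, R 4.3.3) on 16669 genes with a mean of at least 10, with 1 coefficient for each of 12 groups of genotype, treatment and sex, contrasts averaged over the sexes and Benjamini-Hochberg adjustment over all genes. On this scale fold changes of low genes are understated. The script was tested on simulated data. Whole reads could be recovered: 100% of values were whole within 0.01 reads, 1 read being worth 0.75 to 1.27 units. In 4 libraries this step was too close to 1, so edgeR 4.0.16 and DESeq2 1.42.0 were run on 54; for fluoxetine in HT mice they called 817 and 1003 genes, and limma on the same 54 called 789. No 2 libraries of a group agreed within counting noise (ratio to counting noise 2.94 to 57.0 over 112 pairs).

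The members and lists were chosen with earlier results of these data known. In each comparison the members that passed are named, up to 12 by smallest p in each direction, or 3 by smallest p where fewer passed, with P2ry12, Cx3cr1, Tmem119, Csf1r, Sall1 and C1qa always given; of each other list up to 3 that passed. Some genes outside the members are not reported here. Fcgr3 with fluoxetine in HT mice stood outside that rule and was named to complete its count. Motifs were searched with Python 3.11.15. Alternatives were other pseudocounts, filters, scaling, models, a replicate block, the olfactory bulb level as a covariate, single libraries left out, and, chosen after seeing the data, fits without the 10 libraries of low bulb markers and on 54 libraries.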

Additional observations from a re-analysis of the deposited data

Results flagged for a closer look

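Samples far from their group were looked for in 222 groups of a member within a genotype and treatment, with Dixon's test at a level where chance marks about 5% of groups; 6 were marked. C1qa had 903 normalised counts in HT lithium male 5, the lowest of its group, where the next library had 945. WT lithium female 3 was the highest of its group for 4 members: Mpeg1 (961, next 843), Fcrls (1305, next 992), Fcer1g (224, next 178) and Fcgr3 (451, next 368). Mpeg1 had 936 in WT vehicle male 1, the highest of its group, with 865 next.

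The effect of fluoxetine differed between HT and WT mice, by the interaction test, for Ctss (difference of log2 differences 0.34, limma adjusted p = 0.0403) and Mpeg1 (0.32, limma adjusted p = 0.0384). Both calls depended on single libraries and on the libraries of low olfactory bulb markers.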

How the results depend on the processing

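The counts of members that passed were 14, 6, 5 and 3 for fluoxetine in HT, fluoxetine in WT, lithium in HT and lithium in WT mice, 7 for lithium against fluoxetine, 3 for HT against WT under fluoxetine and 2 for the genotype by fluoxetine interaction. With fluoxetine in HT mice the count was 9 in DESeq2, 8 in edgeR and 7 in limma on 54 libraries, and 11 to 18 with single libraries left out. With fluoxetine in WT mice it was 1 without the 10 libraries of low bulb markers and 5 to 9 with single libraries left out. With lithium in HT mice it was 2 in DESeq2, edgeR and limma on 54 libraries, and 3 to 5 with single libraries left out; with lithium in WT mice that range was 2 to 3. HT against WT under fluoxetine gave 0 with the compared groups alone and without the 10 libraries, and 1 to 3 with single libraries left out. The interaction gave 0 with the compared groups alone, without the trend, with the bulb level as covariate, without the 10 libraries and in limma on 54 libraries, 1 in edgeR, and 0 to 4 with single libraries left out. Single libraries gave 0 to 1 for HT against WT under vehicle and under lithium, 0 for the genotype by lithium interaction and for sex, and 7 for lithium against fluoxetine. The cause of these changes was not tested. With a pseudocount of 10 the mean level of the 36 members in HT lithium mice was 8.60, against 8.54.

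Replicate numbers were not seen to pair the mice: in 0 of 66 pairs of groups did all same-numbered libraries deviate together (correlation over 0.1). Mean correlations ran between −0.17 and 0.15. The rule asks this of every same-numbered pair, so it cannot exclude a weak or partial pairing. The replicate block gave 1 for the interaction (Ctss was 0.34, limma adjusted p = 0.0543) and 14 for fluoxetine in HT mice.

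Over all genes the number called changed by more than 1.5 times in some fits. For fluoxetine in HT mice it was 2134, against 1003 in DESeq2, 817 in edgeR, 789 in limma on 54 libraries and 4088 with the bulb level as covariate. For lithium in HT mice it was 2345, against 1257, 1074 and 1061 on 54 libraries; for fluoxetine in WT mice 1232, against 679 without the 10 libraries, and for lithium in WT mice 556, against 310.

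Signs turned round only for values that did not pass. With the bulb level as covariate, Csf1r was −0.039 with fluoxetine in HT mice, Cx3cr1 0.00085 with fluoxetine and 0.0059 with lithium in WT mice, Tmem119 −0.010 with lithium in HT mice, and Sall1 0.13 with fluoxetine in HT, −0.022 with fluoxetine in WT, 0.15 and 0.21 in the fluoxetine and lithium interactions, and 0.084, 0.15 and −0.064 between HT and WT under fluoxetine, lithium and vehicle. Without the 10 libraries, C1qa was −0.0054 in the lithium interaction, Csf1r −0.032 with fluoxetine in HT, Cx3cr1 0.0049 with lithium in WT, and Sall1 0.038 with fluoxetine in HT, 0.019 and 0.17 in the interactions, and 0.036 and 0.19 between HT and WT under fluoxetine and lithium. Sall1 between HT and WT under lithium was 0.020 in DESeq2, 0.024 in edgeR, 0.033 in limma on 54 libraries and 0.036 with the replicate block. Tmem119 between HT and WT under vehicle was −0.023 in DESeq2, −0.025 in edgeR, −0.021 in limma on 54 libraries and −0.00017 with quantile normalisation. Leaving out single libraries turned 9 values: C1qa with lithium in WT (−0.014 to 0.047), Csf1r with fluoxetine in HT (−0.013 to 0.034) and with lithium in WT (−0.023 to 0.051), Cx3cr1 with lithium in WT (−0.067 to 0.00016), Sall1 with lithium in WT (−0.13 to 0.060) and between HT and WT under fluoxetine (−0.21 to 0.046) and lithium (−0.10 to 0.090), and Tmem119 with lithium in HT (−0.0073 to 0.050) and between HT and WT under vehicle (−0.018 to 0.044).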
